A study of Mus musculus with 16 samples.

Results

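The genes described here encode the nuclear-encoded subunits of the mitochondrial respiratory chain and ATP synthase, measured as messenger RNA in cultured mouse articular chondrocytes. They were chosen by symbol: rows starting with Ndufa, Ndufb, Ndufc, Ndufs, Ndufv, Uqcr, Cox4, Cox5, Cox6, Cox7, Cox8 or Atp5, together with Sdha, Sdhb, Sdhc, Sdhd and Cyc1. The 14 rows with -ps in the symbol were left out. This gave 99 of 55450 rows, of which 92 passed the filter on low values (at least 1 FPKM in at least 4 of 16 libraries), as did 12976 rows in all. By complex, the rows tested were 37 of complex I, 8 Ndufaf assembly factors of complex I, 4 of complex II, 9 of complex III, 16 of complex IV, 17 of complex V and the supercomplex assembly factor Cox7a2l. Ndufa4 and its relative Ndufa4l2 carry complex I names but were placed with complex IV, to which the NDUFA4 protein belongs.

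Primary chondrocytes from mouse articular cartilage were grown at 3% oxygen in medium with 10% serum, and 4 libraries were made from each of 4 groups. Bleomycin cells were first given 4 U/mL hyaluronidase for 4 h, 2 days after seeding, then 50 µg/mL bleomycin, a DNA-breaking drug, for 24 h, and then 5 days of drug-free medium. Doxorubicin cells were kept for 5 days in 50 nM doxorubicin, a topoisomerase II poison, with new medium every 48 h, and interleukin-1β (IL-1β) cells were given 1 ng/mL of this inflammatory cytokine for 24 h as an acute stress. Vehicle cells got phosphate-buffered saline of matching volume for 24 h. When vehicle cells were harvested relative to the drug cells, and whether they also got hyaluronidase, is not in the labels, and all 3 treatments were set against the same 4 vehicle libraries. Nothing states that the replicates came from separate animals or cultures, so each p-value measures only the spread between these samples.

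The respiratory chain passes electrons from NADH (through complex I) and succinate (through complex II) to ubiquinone, then through complex III and cytochrome c to complex IV, which reduces oxygen. Complexes I, III and IV pump protons, and ATP synthase (complex V) uses the return flow to make ATP. All complexes but complex II also hold subunits encoded by mitochondrial DNA, and articular chondrocytes, which live in cartilage with little oxygen, are known for making most of their ATP by glycolysis.

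Values are FPKM, fragments that the authors divided by the length of the gene and the size of the library. Sums of FPKM were 405159 to 423830 in the bleomycin, doxorubicin and vehicle libraries and 521294 to 559190 in the IL-1β libraries, where the acute-phase gene Saa3 alone took 12.0% to 14.4% of the sum, against 0.0233% to 0.0619% in vehicle libraries. Depth, estimated from the steps between low values, was 15.8 to 22.1 M (mega) fragments per library. All 12 chondrocyte markers passed the filter, with Col2a1 the highest, and their summed level was 9343 to 12569 FPKM in bleomycin, 9326 to 12387 in doxorubicin, 5634 to 6035 in IL-1β and 12545 to 16833 in vehicle cells. White adipocyte markers, led by Fabp4, summed to 66.7 to 76.9 FPKM in bleomycin, 142 to 187 in doxorubicin, 353 to 392 in IL-1β and 32.3 to 38.2 in vehicle cells. Of these 6 markers, 4 were under 1 FPKM in every IL-1β and every vehicle library, so the IL-1β sum does not show a rise of the whole set. The muscle myosin gene Myh4 was listed at 0 throughout. Synovial fibroblast markers, 5 of 6 tested, summed to 144 to 189 FPKM in bleomycin, 193 to 262 in doxorubicin, 135 to 164 in IL-1β and 84.7 to 123 in vehicle cells. Osteoclast markers, 2 of 5 tested and led by Ctsk, summed to 103 to 113, 122 to 158 and 153 to 178 FPKM in these treatments, against 75.1 to 83.6 FPKM in vehicle cells. The other 3 were under 1 FPKM in every library. Macrophage markers, 3 of 8 tested and led by Lyz2 or Cd14, summed to 15.7 to 17.3, 18.3 to 23.3 and 28.8 to 34.3 FPKM, against 8.19 to 10.7 FPKM. The other 5 were under 1 FPKM in every library. The part of these shifts in the results was not tested, and in such bulk samples fewer cells of a type and less RNA per cell cannot be told apart.

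Promoter sequences are shown for 5 members whose messenger RNAs behaved differently: Cox6b2 and Cox7a1, tissue-restricted complex IV isoforms that rose in all 3 treatments, Ndufa11, a complex I subunit that rose in all 3, Uqcr11, a small complex III subunit with one of the larger IL-1β increases, and Atp5g3, which fell in doxorubicin and rose in IL-1β. These directions are those of the deposited scale, and the IL-1β calls of Ndufa11 and Atp5g3 did not hold under every scaling tried. The RefSeq promoter table (GRCm38.p6) matched 77 of the 99 members by symbol, 74 of them tested. Each sequence runs 5′ to 3′ on the gene's own strand, 204 bases ending 4 bases after the RefSeq start, with capitals marking any match to the 5 motifs described next. The regions are chr7:4753091-4753294 on the minus strand for Cox6b2, chr7:30183971-30184174 on the plus strand for Cox7a1, chr17:56717562-56717765 on the plus strand for Ndufa11, chr10:80406818-80407021 on the minus strand for Uqcr11 and chr2:73911323-73911526 on the minus strand for Atp5g3.
Cox6b2: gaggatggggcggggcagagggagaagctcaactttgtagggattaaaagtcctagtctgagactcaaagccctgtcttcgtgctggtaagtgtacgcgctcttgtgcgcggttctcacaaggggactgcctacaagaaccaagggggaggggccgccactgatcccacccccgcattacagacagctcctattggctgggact
Cox7a1: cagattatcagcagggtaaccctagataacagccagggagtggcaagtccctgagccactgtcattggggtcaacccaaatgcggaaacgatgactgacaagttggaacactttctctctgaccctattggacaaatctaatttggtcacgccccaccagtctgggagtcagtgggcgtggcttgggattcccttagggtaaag
Ndufa11: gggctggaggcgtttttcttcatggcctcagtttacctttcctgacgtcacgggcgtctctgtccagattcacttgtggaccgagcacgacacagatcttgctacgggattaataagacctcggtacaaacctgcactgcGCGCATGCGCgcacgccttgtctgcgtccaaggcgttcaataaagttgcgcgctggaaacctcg
Uqcr11: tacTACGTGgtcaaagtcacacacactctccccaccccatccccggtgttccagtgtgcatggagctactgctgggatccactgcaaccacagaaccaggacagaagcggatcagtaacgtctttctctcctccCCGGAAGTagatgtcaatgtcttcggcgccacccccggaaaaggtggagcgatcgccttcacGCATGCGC
Atp5g3: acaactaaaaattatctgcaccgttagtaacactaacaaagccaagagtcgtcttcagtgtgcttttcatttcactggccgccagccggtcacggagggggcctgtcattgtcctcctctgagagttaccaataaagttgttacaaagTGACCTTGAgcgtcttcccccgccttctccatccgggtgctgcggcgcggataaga

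The motifs were searched on both strands of windows from 250 bases before to 50 bases after each start. The motif GCGCATGC of NRF1, the nuclear respiratory factor, was present in 12 of the 74 members (16.2%), against 5.99% of the 9636 tested genes with a window and 3.05% of all 27025 genes in the table. It reads nearly the same on both strands, so that in Ndufa11 the capitals hold 2 overlapping matches. Uqcr11 carried it at the start itself, beside a GABPA motif (CCGGAAGT) and a HIF motif (TACGTG). That was the only HIF motif among the 74 members searched, 1.35% against 4.41% of tested genes. Cox4i2 and Ndufa4l2, described below as associated with low oxygen or HIF-1, had no window and were not searched. The YY1 motif AAGATGGCG was in 8 members, 10.8%, against 3.69% of tested genes, and the ESRRA motif TCAAGGTCA in Sdhd and Atp5g3, 2.7% against 0.311%. GABPA was in 5 members, 6.76%, against 9.45% of tested genes. None of the 5 motifs' letters occurred in the windows shown for Cox6b2 and Cox7a1. A match is a run of letters, not a binding site, and no factor binding was measured.

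Messenger RNA of the members was abundant in these cells. Over the 86 tested members that are neither alternative isoforms nor gene copies, the median level in vehicle cells was 80.8 FPKM, against 8.67 FPKM for all tested genes. The lowest was 5.69 FPKM for Ndufaf6, a complex I assembly factor, and the highest 504 FPKM for Atp5b, the catalytic β subunit of ATP synthase. Median vehicle levels were 59.2 FPKM in complex I, 10.7 in its assembly factors, 77.2 in complex II, 132 in complex III, 149 in complex IV and 151 in complex V. The members that did not pass the filter were the testis or muscle isoforms Cox7b2 (0 FPKM in every library), Cox8b (at most 0.164 FPKM) and Cox8c (at most 0.136 FPKM), Cox6c2 (at most 0.861 FPKM), the gene copies Ndufa11b and Ndufs6b, and a second Atp5o row listed at 0. The tables held no row for any of the 13 mitochondrially encoded subunits, which were therefore not analysed here.

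Relative to vehicle, the 2 DNA-damaging drugs moved the members in both directions and IL-1β moved them upward, the IL-1β direction for most members being that of the deposited scale and not of scaling to equal sums. Members were called at an adjusted p under 0.05, with limma fitted to all 16 libraries and p adjusted over the 12976 genes. In bleomycin cells 18 of 92 members rose and 19 fell, 19.6% and 20.7%, where 27.9% of all tested genes rose and 19% fell. In doxorubicin cells 12 rose and 22 fell, 13.0% and 23.9%, where 25.4% of all genes rose and 22.8% fell. Under every scaling tried, 13 of the 18 and 16 of the 19 bleomycin calls were kept. Those not kept were Ndufa13, Ndufaf8, Uqcr11, Cox8a and Atp5k (higher) and Ndufa9, Ndufs1 and Atp5pb (lower). With doxorubicin all 12 increases and 20 of the 22 decreases were kept, without Ndufs3 and Atp5pb. For both drugs the share that fell was near that of all genes and the share that rose was below it, and the median log2 differences were 0.02 and -0.08, against 0.06 and 0.02 for all genes. Differences of at least 1 on the log2 scale were called in 4 members in bleomycin cells (Cox6b2, Cox7a1, Ndufa4l2 and Ndufaf4) and 1 in doxorubicin cells (Cox6b2), where 3.47% and 5.53% of all genes had one.

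In IL-1β cells 53 of 92 members rose and 1 fell, 57.6% and 1.09%, where 24.5% of all genes rose and 18.4% fell. The median log2 difference was 0.29 in members and 0.03 in all genes. In 48 of the 92 members every IL-1β library lay above every vehicle library, as in 2851 of all 12976 tested genes. Cox6b2, Cox7a1 and Cox7a2l differed by at least 1 on the log2 scale, where 5.63% of all genes did. Saa3 takes up a large part of the IL-1β FPKM sums, and scaling each library to the same sum moved the all-gene median to -0.31, with 10.1% of genes higher and 52.6% lower. Members then split into 16 higher and 32 lower, or 32 higher and 13 lower with Saa3 left out of the sum. Measured against the all-gene median, the members' median difference was 0.23 to 0.27 under the 5 scalings tried. All of these but quantile normalization differ by 1 factor per library, which moves members and other genes nearly alike. Their like values were therefore nearly fixed in advance and add no separate support. By quantiles the value was 0.23. The count of increases differed between the scalings. With equal sums the IL-1β medians of complexes I, II, III, IV and V were -0.04, -0.20, -0.17, 0.01 and -0.17, so the IL-1β increases given below hold on the deposited scale. The 16 members that rose under every scaling were Ndufa1, Ndufa2, Ndufa6, Ndufb2, Ndufb8, Uqcr10, Uqcr11, Uqcrq, Cox6b2, Cox7a1, Cox7b, Cox7c, Atp5e, Atp5h, Atp5k and Atp5l.

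**Figure D1:**
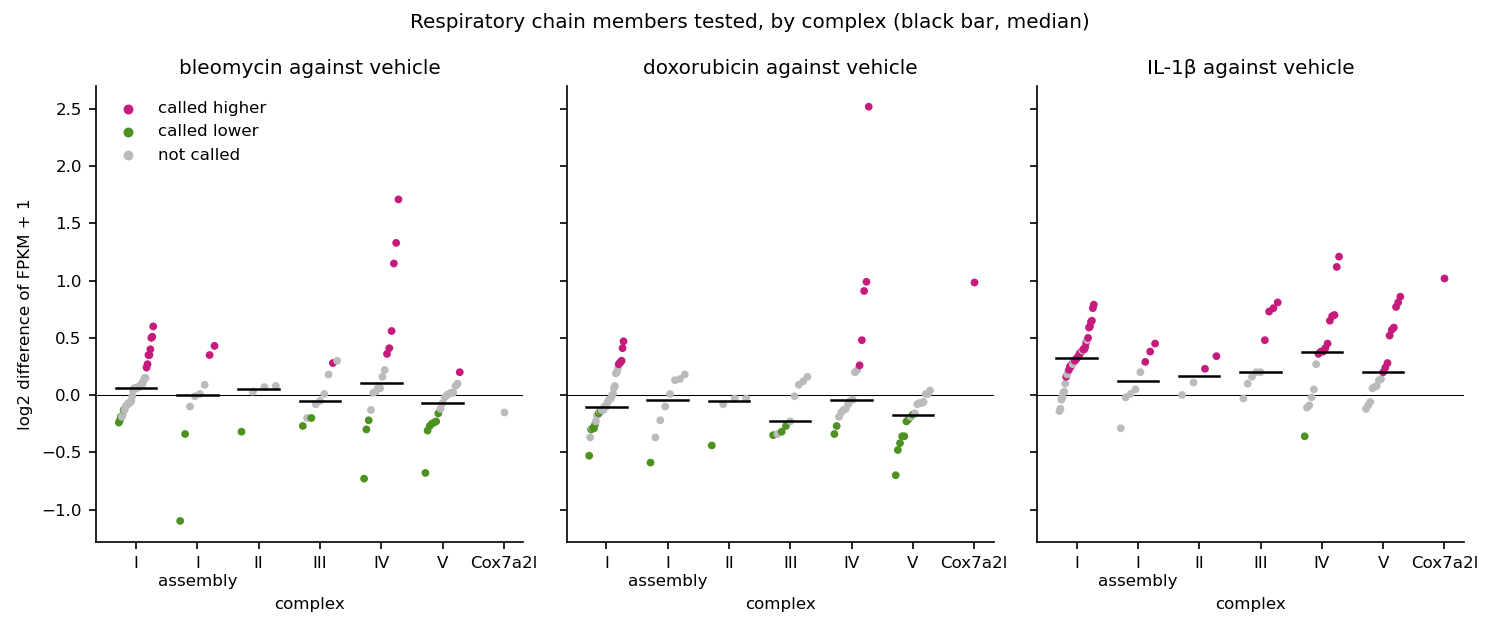
Log2 difference from vehicle, on the log2(FPKM + 1) scale, for each of the 92 tested members by complex, with 1 panel each for bleomycin, doxorubicin and IL-1β; each point is a member, coloured by whether it was called higher, lower or neither, and the black bar is the median. In complex V the median is -0.07, -0.17 and 0.20 (-0.17 for IL-1β with libraries scaled to equal sums), and the points far above the others in complex IV are tissue-restricted or oxygen-dependent isoforms.

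The members' share of the FPKM sum, with Saa3 counted in that sum, lay within a narrow range. All members together made up 2.42% to 2.61% of the FPKM sum in bleomycin, 2.27% to 2.45% in doxorubicin, 2.36% to 2.55% in IL-1β and 2.34% to 2.46% in vehicle libraries. Saa3 took 12.0% to 14.4% of the sum in IL-1β libraries and at most 0.63% in the others. The IL-1β share is therefore higher than this when Saa3 is left out, and the like shares do not show an unchanged chain. Before division by the sum, the members added up to 9786 to 10908 FPKM in bleomycin, 9260 to 10269 in doxorubicin, 12304 to 13718 in IL-1β and 9725 to 10426 in vehicle libraries. The complexes did not move alike: complex V summed to 3152 to 3556, 2992 to 3412 and 4370 to 4822 FPKM in bleomycin, doxorubicin and IL-1β cells, against 3550 to 3708 in vehicle cells. Complex IV summed to 2614 to 2916 FPKM in bleomycin, 2445 to 2732 in doxorubicin and 2918 to 3339 in IL-1β cells, against 2273 to 2453 in vehicle cells. All treated libraries lay above the vehicle range for complex IV except doxorubicin replicate 2. Ndufa4l2 alone averaged 622, 559 and 375 FPKM of this sum in bleomycin, doxorubicin and IL-1β cells, against 281 FPKM in vehicle cells, and the 11 general subunits of complex IV had median log2 differences of 0.06, -0.08 and 0.38.

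**Figure D2:**
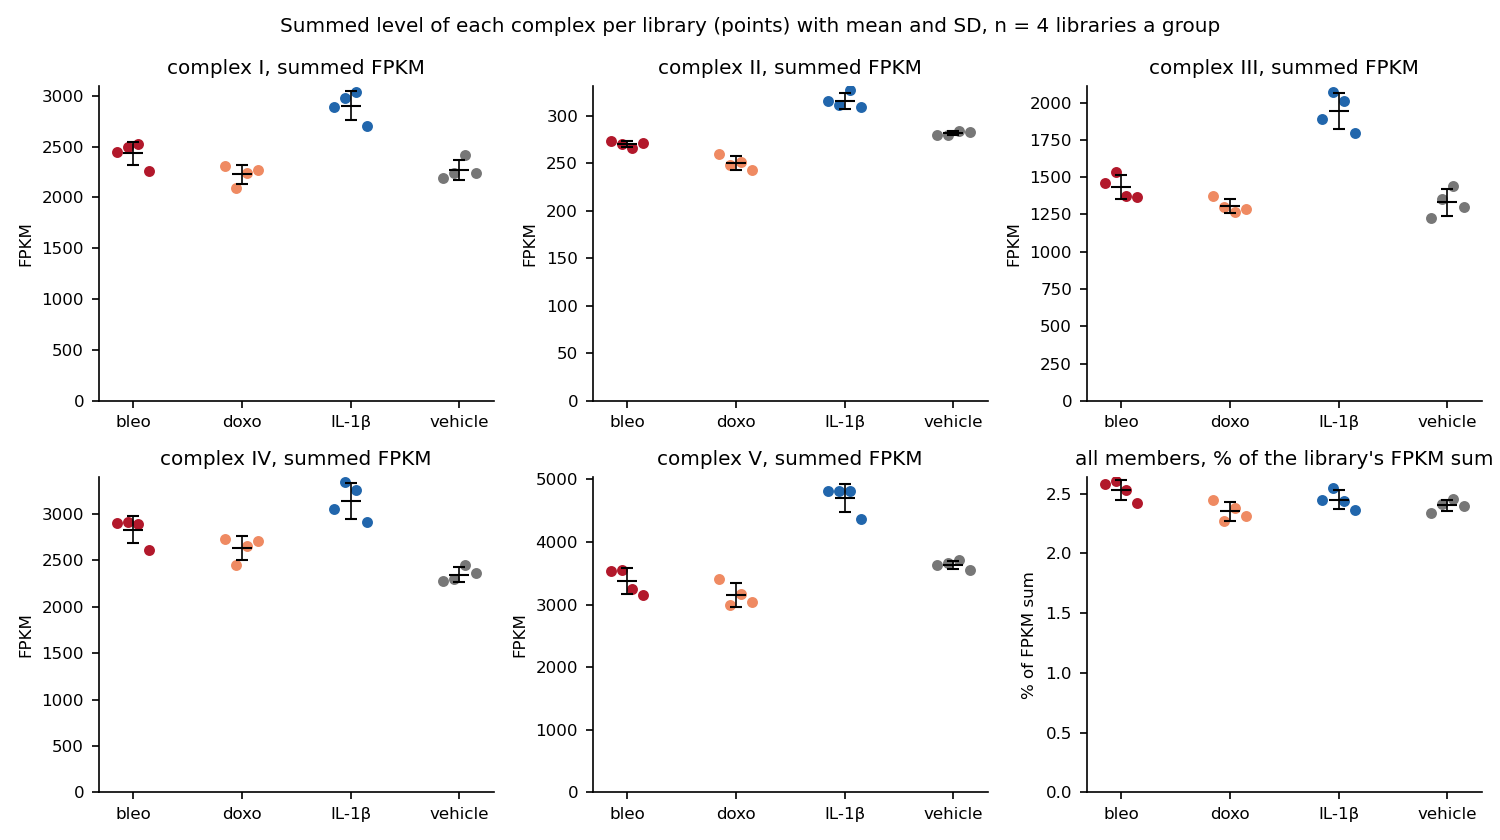
Summed FPKM of complexes I to V per library, and the members' percent of each library's FPKM sum, in bleomycin, doxorubicin, IL-1β and vehicle cells. Points are libraries (4 per group). Complex V sums reach 4370 to 4822 FPKM in IL-1β libraries against 3550 to 3708 FPKM in vehicle libraries. The percent of the FPKM sum, with Saa3 counted in the sum, lies between 2.27% and 2.61% in all 16.

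Complex I is the entry point for NADH, with 7 nuclear-encoded core subunits that carry the electrons and a larger set of accessory subunits around them. Of 30 accessory subunits tested, 8 rose and 1 fell in bleomycin cells, 6 rose and 3 fell in doxorubicin cells, and 21 rose and 0 fell in IL-1β cells, with median log2 differences of 0.07, -0.03 and 0.35. The 8 and 6 of 30 that rose with the drugs were near or below the 27.9% and 25.4% of all genes that did. Of the 7 core subunits, 0 rose and 3 fell in bleomycin cells, 0 rose and 4 fell in doxorubicin cells, and 3 rose and 0 fell in IL-1β cells, with medians of -0.09, -0.23 and 0.21. The shares of these 7 that fell with the drugs were 42.9% and 57.1%, beside 19% and 22.8% of all genes. With IL-1β 42.9% of the core and 70.0% of the accessory subunits rose, beside 24.5% of all genes. The difference between the accessory and core sets was not tested.

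Ndufa1, a small accessory subunit needed for assembly of the membrane arm, had 114, 106, 116 and 99.3 FPKM in bleomycin cells, 99.2, 90.7, 107 and 99 FPKM in doxorubicin cells, and 103, 112, 134 and 103 FPKM in IL-1β cells, against 68.4, 65, 78.5 and 73.7 FPKM in vehicle cells. Every treated library lay above every vehicle library. Ndufa1 rose 1.52-fold, 1.39-fold and 1.58-fold in bleomycin, doxorubicin and IL-1β cells (log2 differences 0.60 ± 0.09, 0.47 ± 0.09 and 0.65 ± 0.09 SE, adjusted p = 3.32e-05, 0.000305 and 1.4e-05). Ndufa11, another membrane-arm subunit and one of the promoters shown above, averaged 49.1 ± 1.68, 46.7 ± 5.06 and 55.0 ± 6.73 FPKM in these cells, against 38.2 ± 1.53 FPKM in vehicle cells (SD, n = 4 each). It too rose in all 3 treatments, as did Ndufa3, Ndufa7 and Ndufa13, whose log2 differences were 0.27 to 0.50, and none of these 4 kept its IL-1β call under every scaling.

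Ndufv3, an accessory subunit of the NADH-oxidising tip, rose with the drugs and did not pass the test in IL-1β cells. It had 128, 125, 125 and 114 FPKM in bleomycin, 118, 98.1, 101 and 106 FPKM in doxorubicin and 83.7, 85.8, 103 and 82.3 FPKM in IL-1β cells, against 82, 85.8, 95.2 and 82.3 FPKM in vehicle cells. All drug libraries lay above the vehicle range, and the IL-1β libraries overlapped it. The log2 differences were 0.51 ± 0.08 in bleomycin, 0.29 ± 0.08 in doxorubicin and 0.03 ± 0.08 in IL-1β cells (adjusted p = 4.96e-05, 0.00497 and 0.756), and bleomycin exceeded IL-1β by 0.48 (adjusted p = 7.23e-05).

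Ndufs8, a core subunit that holds iron-sulphur clusters on the way to ubiquinone, had 48.1, 42.2, 47.3 and 44.6 FPKM in bleomycin cells, 39.3, 33.5, 33.8 and 41 FPKM in doxorubicin cells and 63.8, 74.4, 66.6 and 64.1 FPKM in IL-1β cells, against 48, 51.9, 53.1 and 61.1 FPKM in vehicle cells. All doxorubicin libraries were below the vehicle range and all IL-1β libraries above it, while 1 bleomycin library overlapped it. Ndufs8 fell by 0.22 on the log2 scale in bleomycin and by 0.53 in doxorubicin cells and rose by 0.33 in IL-1β cells (adjusted p = 0.0348, 6.54e-05 and 0.00431). The bleomycin call was lost without bleomycin replicate 2 (-0.19) or 4 (-0.22) or vehicle replicate 3 (-0.23) or 4 (-0.16). Ndufs1, the largest core subunit, fell to 42.8 ± 2.96 FPKM in bleomycin and 40.8 ± 2.58 FPKM in doxorubicin cells, against 49.2 ± 3.16 FPKM in vehicle cells.

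Accessory subunits with the larger IL-1β increases included Ndufb2, Ndufb8 and Ndufa6. Ndufb2 had 26.5, 30.5, 30.4 and 17.1 FPKM in bleomycin, 31.3, 21.7, 29 and 20.7 FPKM in doxorubicin and 44.8, 40.5, 41.1 and 41 FPKM in IL-1β cells, against 24.3, 24.2, 29.2 and 18.5 FPKM in vehicle cells. The IL-1β libraries stood clear of all others, and the drug and vehicle libraries overlapped. Its IL-1β difference was 0.79 ± 0.17 (adjusted p = 0.00144). Ndufa6 had 123, 116, 122 and 98.5 FPKM in bleomycin, 105, 93, 95.2 and 104 FPKM in doxorubicin and 148, 150, 162 and 128 FPKM in IL-1β cells, against 76.4, 86.5, 112 and 74.8 FPKM in vehicle cells, with every IL-1β library above all others and an IL-1β difference of 0.76 ± 0.11 (adjusted p = 3.84e-05). Ndufb8 averaged 163 ± 19.7, 140 ± 13 and 270 ± 38.5 FPKM in bleomycin, doxorubicin and IL-1β cells, against 172 ± 15 FPKM in vehicle cells. It fell in doxorubicin (adjusted p = 0.0258) and rose in IL-1β cells (adjusted p = 0.000101). The row Gm20538, on the same strand, overlaps 4.26% of the Ndufb8 exon bases and had at most 1.02 FPKM in any library. A split of fragments between them was not tested.

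Among the 8 Ndufaf assembly factors, which are not part of the finished complex, 2 rose and 2 fell in bleomycin, 0 rose and 1 fell in doxorubicin and 3 rose and 0 fell in IL-1β cells. The bleomycin shares, 25% each, were near the 27.9% and 19% of all genes that rose and fell. The doxorubicin decreases, 12.5%, were below the 22.8% of all genes, and the IL-1β increases, 37.5%, stood beside 24.5%. Ndufaf6 had 4.64, 4.51, 4.4 and 3.6 FPKM in bleomycin, 3.13, 3.48, 4 and 3.2 FPKM in doxorubicin and 7.01, 6.4, 7.02 and 6.25 FPKM in IL-1β cells, against 5.91, 5.34, 5.17 and 6.34 FPKM in vehicle cells. All drug libraries lay below all vehicle libraries, with log2 differences of -0.34 and -0.59 in bleomycin and doxorubicin cells (adjusted p = 0.00399 and 3.22e-05), and the IL-1β libraries overlapped them. Ndufaf3 averaged 9.16 ± 0.613 FPKM in bleomycin cells, against 6.55 ± 0.544 FPKM in vehicle cells, an increase of 0.43 ± 0.08 (adjusted p = 0.000561), and Ndufaf8 rose by 0.35 in bleomycin and by 0.45 in IL-1β cells. The bleomycin call for Ndufaf8 was lost without bleomycin replicate 2 (0.28) or 3 (0.32) or vehicle replicate 4 (0.26).

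Ndufaf4 varied widely within groups. It had 5.67, 2.17, 2.25 and 1.58 FPKM in bleomycin cells, 5.26, 5.12, 5.36 and 4.47 FPKM in doxorubicin cells and 8, 9.38, 3.73 and 2.72 FPKM in IL-1β cells, against 9.09, 9.09, 7.44 and 3.31 FPKM in vehicle cells. The groups overlapped. The bleomycin difference was -1.10 ± 0.34 (adjusted p = 0.0157), and without bleomycin replicate 4 it was -0.93 and no longer called (adjusted p = 0.0527).

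Complex II, the succinate dehydrogenase of the citric acid cycle, has 4 subunits, all nuclear. Only Sdhb, the iron-sulphur subunit, was called under the drugs. It had 74.2, 77.2, 76 and 79.3 FPKM in bleomycin, 72.7, 69.4, 71.1 and 69.5 FPKM in doxorubicin and 105, 107, 110 and 94.5 FPKM in IL-1β cells, against 97.1, 94.1, 97.5 and 95.6 FPKM in vehicle cells. Every drug library lay below every vehicle library by a wide gap, and 1 IL-1β library lay within the vehicle range while the others lay above it. Sdhb fell by 0.32 ± 0.05 in bleomycin and by 0.44 ± 0.05 in doxorubicin cells on the log2 scale (adjusted p = 4.34e-05 and 1.45e-06), with 0.11 in IL-1β cells (adjusted p = 0.0653). The 1 of 4 subunits that fell with each drug, 25%, stood beside 19% and 22.8% of all genes.

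The flavin-bearing partner of Sdhb, Sdha, averaged 63.6 ± 2.54, 59 ± 1.8 and 62.5 ± 0.709 FPKM in bleomycin, doxorubicin and IL-1β cells, against 62.4 ± 1.03 FPKM in vehicle cells. Sdha was not called, although every doxorubicin library lay below every vehicle library. The membrane anchors did not pass the test under either drug and rose with IL-1β. Sdhc averaged 40.4 ± 4.95 FPKM in IL-1β and 31.4 ± 0.263 FPKM in vehicle cells (0.34, adjusted p = 0.00271), and Sdhd 108 ± 5.24 and 92.1 ± 2.82 FPKM (0.23, adjusted p = 0.000444). Both of these IL-1β differences turned negative when libraries were scaled to the same sum.

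In complex III, which passes electrons from ubiquinol to cytochrome c, 1 of 9 members rose and 2 fell in bleomycin cells, 0 rose and 3 fell in doxorubicin cells and 4 rose and 0 fell in IL-1β cells. The shares that fell with bleomycin and doxorubicin were 22.2% and 33.3%, beside 19% and 22.8% of all genes. With IL-1β 44.4% rose, beside 24.5% of all genes. The 4 that rose with IL-1β were all among the 5 small accessory subunits, whose median difference was 0.73. Uqcr10 had 286, 379, 287 and 318 FPKM in bleomycin, 275, 298, 281 and 257 FPKM in doxorubicin and 409, 533, 436 and 426 FPKM in IL-1β cells, against 193, 289, 295 and 259 FPKM in vehicle cells. Every IL-1β library was above every other library, and the IL-1β difference was 0.81 ± 0.12 (adjusted p = 6.22e-05). Uqcr11, whose promoter is shown above, had 314, 348, 292 and 305 FPKM in bleomycin, 311, 262, 252 and 285 FPKM in doxorubicin and 452, 469, 451 and 386 FPKM in IL-1β cells, against 237, 271, 286 and 245 FPKM in vehicle cells. It rose by 0.28 in bleomycin (adjusted p = 0.012) and by 0.76 ± 0.08 in IL-1β cells (adjusted p = 1.69e-06), and its doxorubicin libraries overlapped the vehicle range. Its bleomycin call did not hold under every scaling.

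The subunits of complex III that fell with the drugs were larger ones. Uqcrc2, a core protein on the matrix side, had 72.3, 70.2, 65.3 and 68.8 FPKM in bleomycin, 64.3, 64.2, 68.2 and 64.9 FPKM in doxorubicin and 81.4, 82.1, 79.1 and 84.8 FPKM in IL-1β cells, against 88.8, 80.3, 80.5 and 84.9 FPKM in vehicle cells. The drug libraries all lay below the vehicle range and the IL-1β libraries within or beside it. The differences were -0.27 ± 0.05 and -0.35 ± 0.05 in bleomycin and doxorubicin cells (adjusted p = 0.000224 and 1.58e-05). Uqcrfs1, the Rieske iron-sulphur protein, fell to 40.9 ± 4.21 and 37.3 ± 1.23 FPKM, against 47 ± 4.76 FPKM in vehicle cells (adjusted p = 0.0489 and 0.00262). The bleomycin call for Uqcrfs1 was lost in 13 of the 16 fits that each left out 1 library, over which the difference was -0.26 to -0.12. Uqcrc1 fell in doxorubicin cells to 63.1 ± 2.73 FPKM, against 76.1 ± 2.91 FPKM.

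Complex IV, cytochrome c oxidase, has isoforms of several subunits that are used in particular tissues or oxygen conditions, and these held the largest differences from vehicle of any complex. Of the 8 alternative isoforms, 5 were tested. Of these, 4 rose and 1 fell in bleomycin, 4 rose and 0 fell in doxorubicin and 3 rose and 1 fell in IL-1β cells. Their median log2 differences were 1.15, 0.91 and 0.41. Cox7a1, which rose, and Cox6a2, which fell in bleomycin, passed the filter through the groups where they were higher. The filter thus favoured their directions, and these counts are a description only. Of the 11 general subunits, 2 rose and 2 fell in bleomycin, 1 rose and 2 fell in doxorubicin and 7 rose and 0 fell in IL-1β cells. Of all tested genes, 27.9%, 25.4% and 24.5% rose and 19%, 22.8% and 18.4% fell in these cells. The general subunits' drug decreases, 18.2% with each drug, were near those shares, and 63.6% of them rose with IL-1β.

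Cox6b2, known as a testis isoform of the subunit that faces cytochrome c, had 15.5, 17.7, 21.7 and 15.2 FPKM in bleomycin, 31.1, 31.3, 29.6 and 32.5 FPKM in doxorubicin and 14.1, 8.88, 12.9 and 9.65 FPKM in IL-1β cells, against 4.68, 3.76, 5.23 and 4.87 FPKM in vehicle cells. No library of any treatment overlapped the vehicle range, and the doxorubicin libraries did not overlap those of bleomycin or IL-1β. Cox6b2 rose 3.78-fold, 6.71-fold and 2.46-fold (log2 differences 1.71 ± 0.13, 2.52 ± 0.13 and 1.12 ± 0.13, adjusted p = 4.86e-08, 4.73e-10 and 3.91e-06), and bleomycin lay below doxorubicin (log2 difference -0.80, adjusted p = 0.00109). The general isoform Cox6b1 averaged 212 ± 8.58, 227 ± 14 and 246 ± 25.4 FPKM, against 189 ± 6.59 FPKM in vehicle cells. Cox6b2 therefore stood at 8.3% ± 1.45, 13.7% ± 0.777 and 4.68% ± 1.23 of the Cox6b1 level per unit of length, against 2.45% ± 0.295 in vehicle cells.

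Ndufa4l2, a relative of Ndufa4 known as a HIF-1 target, was among the most abundant members after drug treatment. It had 633, 636, 618 and 601 FPKM in bleomycin, 562, 508, 538 and 626 FPKM in doxorubicin and 332, 339, 449 and 381 FPKM in IL-1β cells, against 265, 262, 303 and 294 FPKM in vehicle cells. All treated libraries were above the vehicle range, and all drug libraries were above all IL-1β libraries. It rose 2.21-fold, 1.99-fold and 1.34-fold in bleomycin, doxorubicin and IL-1β cells (adjusted p = 4.21e-08, 1.53e-07 and 0.00125), the IL-1β call not holding under every scaling. Its exons share 32 bases on the opposite strand with those of Shmt2, whose mean was 83.4, 71.5, 144 and 198 FPKM in bleomycin, doxorubicin, IL-1β and vehicle cells, and whether counting used strand is not stated.

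Ndufa4 went the other way under the drugs. It had 96.3, 97.1, 89.3 and 91.1 FPKM in bleomycin, 90.1, 94.1, 81.1 and 79.3 FPKM in doxorubicin and 140, 140, 162 and 157 FPKM in IL-1β cells, against 110, 102, 116 and 108 FPKM in vehicle cells. The drug libraries were all below and the IL-1β libraries all above the vehicle range, with differences of -0.22, -0.34 and 0.45 (adjusted p = 0.013, 0.00054 and 3.77e-05). Per unit of length, Ndufa4l2 was at 666% ± 17.2 of Ndufa4 in bleomycin, 654% ± 104 in doxorubicin and 250% ± 18.9 in IL-1β cells, against 258% ± 12.4 in vehicle cells.

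Cox4i2, the isoform of subunit 4 associated with low oxygen, was the only member that rose with both drugs and fell with IL-1β. It had 109, 110, 100 and 100 FPKM in bleomycin, 104, 86.4, 104 and 101 FPKM in doxorubicin and 52.9, 58.6, 58.7 and 49.7 FPKM in IL-1β cells, against 71.5, 70.5, 71.5 and 69.1 FPKM in vehicle cells. No treated library overlapped the vehicle range. The differences were 0.56 ± 0.07, 0.48 ± 0.07 and -0.36 ± 0.07 (adjusted p = 5.33e-06, 2.22e-05 and 0.000392), and each was called in the same direction under every scaling tried. Cox4i2 was higher in both drugs than in IL-1β cells, by 0.92 in bleomycin and 0.84 in doxorubicin cells (adjusted p = 1.11e-08 and 3.2e-08).

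The general isoform Cox4i1 had 329, 359, 442 and 315 FPKM in bleomycin, 312, 298, 434 and 269 FPKM in doxorubicin and 508, 725, 563 and 458 FPKM in IL-1β cells, against 300, 356, 328 and 447 FPKM in vehicle cells. The drug libraries overlapped the vehicle range and all IL-1β libraries lay above it (0.65 ± 0.17, adjusted p = 0.00472). Cox4i2 was thus at 29.5% ± 4.71 of Cox4i1 in bleomycin, 31% ± 5.88 in doxorubicin and 9.95% ± 1.26 in IL-1β cells, against 20.2% ± 3.57 in vehicle cells.

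Cox7a1, the heart and skeletal muscle isoform of subunit 7a, was low throughout. It had 3.89, 3.95, 4.17 and 2.51 FPKM in bleomycin, 3.13, 2.12, 3 and 1.66 FPKM in doxorubicin and 4.79, 3.24, 2.61 and 2.54 FPKM in IL-1β cells, against 0.978, 0.87, 0.485 and 1.01 FPKM in vehicle cells. All treated libraries lay above all vehicle libraries, with differences of 1.33 ± 0.18, 0.91 ± 0.18 and 1.21 ± 0.18 (adjusted p = 1.87e-05, 0.000571 and 4.51e-05). Its general partner Cox7a2 averaged 130 ± 1.25, 121 ± 16.7 and 167 ± 11.7 FPKM in bleomycin, doxorubicin and IL-1β cells, against 128 ± 10 FPKM in vehicle cells, so that Cox7a1 was at 2.79%, 2.05% and 1.98% of Cox7a2, against 0.667% in vehicle cells. Its vehicle level is near the filter, which it passed through the treated libraries. The 8 skeletal muscle markers, 4 of them tested and Myh4 listed at 0, summed to 8.98 to 11.2 FPKM in bleomycin, 7.97 to 9.21 in doxorubicin, 4.88 to 8.08 in IL-1β and 12.9 to 18.6 in vehicle cells, lower in each treatment than in vehicle. The 5 brown adipocyte markers, 2 of them tested, summed to 2.03 to 3.66 FPKM in bleomycin, 2.92 to 3.61 in doxorubicin, 3.27 to 4.83 in IL-1β and 0.664 to 1.64 in vehicle cells, and their part in the Cox7a1 increase was not tested.

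Cox6a2, another muscle isoform, had 0.725, 0.718, 0.43 and 0.477 FPKM in bleomycin, 1.25, 1.29, 1.69 and 1.25 FPKM in doxorubicin and 1.24, 2, 1.59 and 1.02 FPKM in IL-1β cells, against 1.02, 1.57, 1.81 and 2.3 FPKM in vehicle cells. It was below 1 FPKM in every bleomycin library and above 1 FPKM in all others, through which it passed the filter, and the bleomycin difference was -0.73 ± 0.15. The general Cox6a1 averaged 259 ± 32.7, 239 ± 15.7 and 233 ± 20.7 FPKM in bleomycin, doxorubicin and IL-1β cells, against 248 ± 26.9 FPKM in vehicle cells, and was not called in any comparison with vehicle.

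Among the other general subunits of complex IV, Cox5a, a nuclear subunit of the core's matrix side, fell to 67.5 ± 6.63 and 68.8 ± 5.87 FPKM in bleomycin and doxorubicin cells, against 82.9 ± 5.29 FPKM in vehicle cells (adjusted p = 0.00417 and 0.00767). Cox6c rose to 190 ± 12.2 FPKM in bleomycin and 186 ± 23.6 FPKM in IL-1β cells, against 143 ± 13.6 FPKM. Cox8a rose in bleomycin cells to 226 ± 29.6 FPKM, against 177 ± 33.7 FPKM, a call lost without bleomycin replicate 1 (0.31), 2 (0.35) or 3 (0.33) or vehicle replicate 2 (0.34) or 4 (0.24). Cox7b had 580, 584, 503 and 512 FPKM in IL-1β cells, against 337, 352, 305 and 340 FPKM in vehicle cells, with no overlap (0.70, adjusted p = 5.01e-06), and Cox7c averaged 239 ± 27.2 FPKM, against 149 ± 22.1 FPKM (0.69, adjusted p = 2.46e-05).

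**Figure D3:**
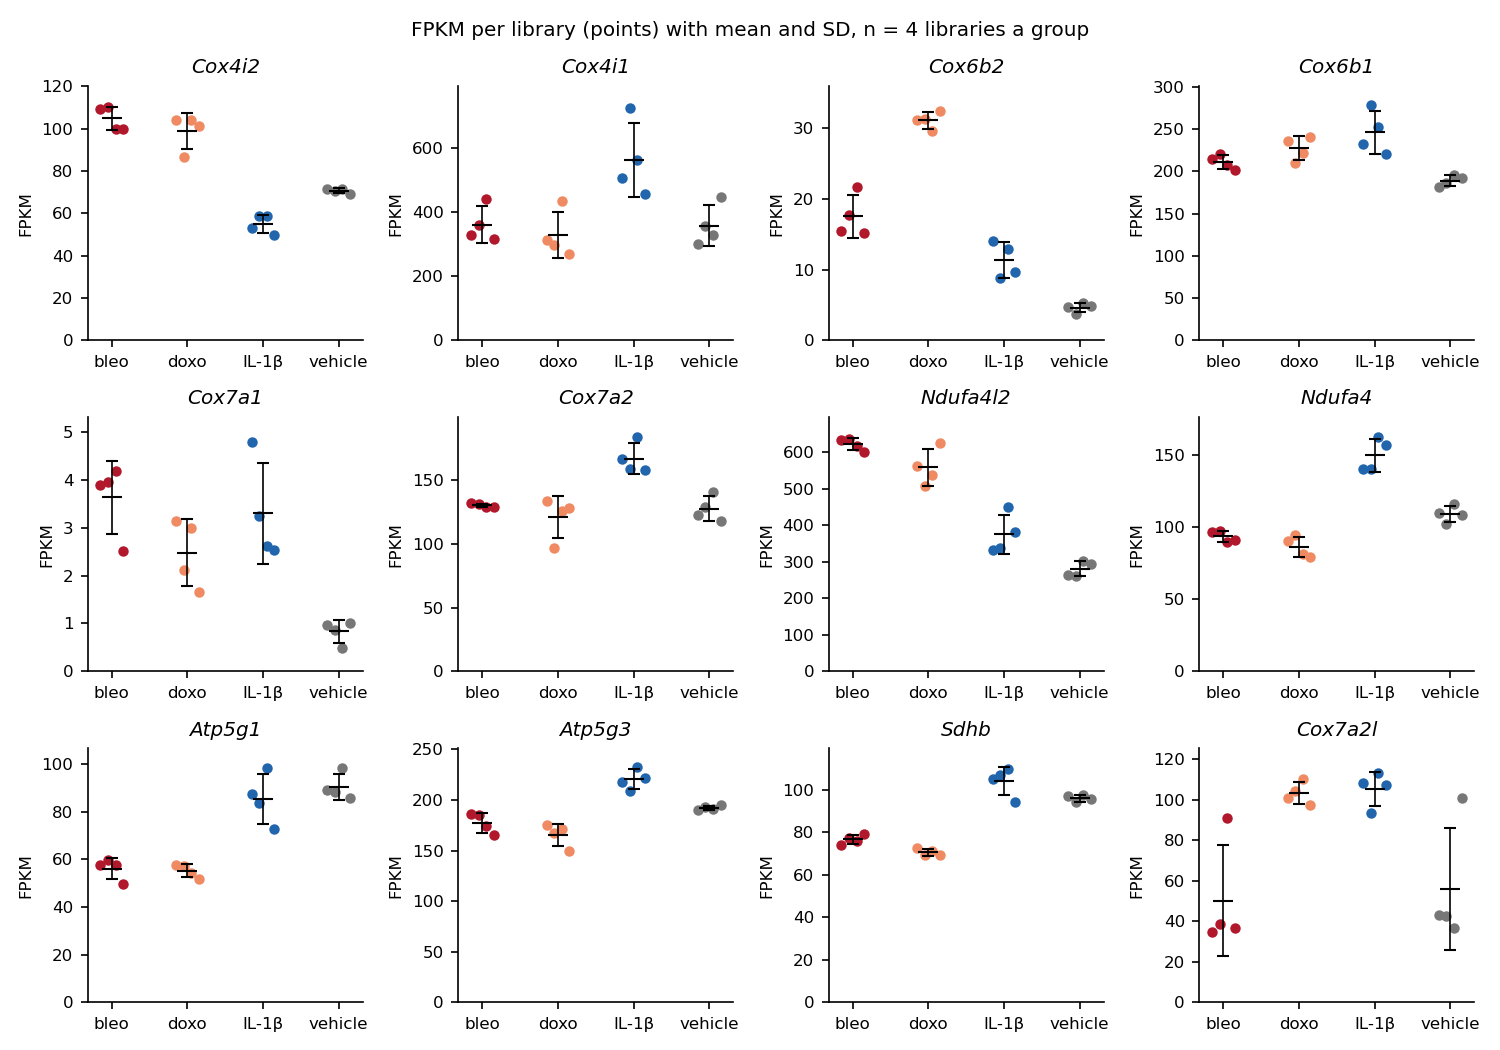
FPKM of 12 members in each library of bleomycin, doxorubicin, IL-1β and vehicle cells, with isoform partners in neighbouring panels; points are libraries and bars are the mean ± SD (n = 4 each). Cox6b2 reaches 31.1 ± 1.2 FPKM in doxorubicin cells, against 4.63 ± 0.626 FPKM in vehicle cells, and Cox7a2l shows a low and a high level within the bleomycin and the vehicle group.

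Cox7a2l, also called SCAF1, tethers complexes III and IV in supercomplexes. It had 34.5, 38.7, 90.9 and 36.6 FPKM in bleomycin, 101, 104, 110 and 97.1 FPKM in doxorubicin and 108, 93.3, 113 and 107 FPKM in IL-1β cells, against 43.1, 42.8, 36.7 and 101 FPKM in vehicle cells. Bleomycin replicate 3 and vehicle replicate 4 stood at the level of the doxorubicin and IL-1β libraries, and the other 6 bleomycin and vehicle libraries at 34.5 to 43.1 FPKM. The doxorubicin and IL-1β differences were 0.99 and 1.02 (adjusted p = 0.00958 and 0.0092), and 1.32 and 1.34 without vehicle replicate 4. The bleomycin difference from vehicle was -0.15 ± 0.29 (adjusted p = 0.701), and -0.47 without bleomycin replicate 3 or 0.17 without vehicle replicate 4.

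Complex V, ATP synthase, has a catalytic F1 head, a rotating c-ring, a peripheral stalk and further membrane subunits. Of 17 members, 1 rose and 7 fell in bleomycin cells, 0 rose and 8 fell in doxorubicin cells and 9 rose and 0 fell in IL-1β cells. The shares that fell with bleomycin and doxorubicin were 41.2% and 47.1%, where 19% and 22.8% of all genes fell. With IL-1β 52.9% rose, where 24.5% of all genes did. Of the 5 subunits of the F1 head, 3 fell in each drug and 1 rose in IL-1β cells. Atp5b had 419, 402, 403 and 393 FPKM in bleomycin, 380, 341, 351 and 370 FPKM in doxorubicin and 457, 460, 474 and 456 FPKM in IL-1β cells, against 559, 514, 467 and 476 FPKM in vehicle cells. Every drug library lay below every vehicle library, and the IL-1β libraries overlapped the vehicle range. Atp5b fell by 0.31 ± 0.06 and by 0.48 ± 0.06 in bleomycin and doxorubicin cells (adjusted p = 0.000265 and 3.34e-06).

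Atp5a1, the α subunit, fell to 237 ± 30 and 211 ± 15.1 FPKM in bleomycin and doxorubicin cells, against 281 ± 9.28 FPKM in vehicle cells, and Atp5c1, the γ subunit of the central stalk, fell by 0.27 and by 0.36 on the log2 scale. Atp5e, the small ε subunit, was the head subunit that rose with IL-1β. It had 638, 656, 671 and 579 FPKM in IL-1β cells, against 358, 304, 390 and 351 FPKM in vehicle cells, with no overlap (0.86 ± 0.10, adjusted p = 2.68e-06), while the drug libraries, at 290 to 408 FPKM, overlapped the vehicle range.

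The c-ring, the rotor through which protons pass, is made of 1 protein encoded by the 3 genes Atp5g1, Atp5g2 and Atp5g3. Atp5g1 had 57.7, 59.7, 57.5 and 49.6 FPKM in bleomycin, 57.6, 57.3, 54.1 and 51.9 FPKM in doxorubicin and 87.2, 83.4, 98.1 and 72.5 FPKM in IL-1β cells, against 89.2, 88.2, 98.2 and 85.5 FPKM in vehicle cells. The drug libraries lay far below the vehicle range, and the IL-1β libraries overlapped it. The drug differences were -0.68 ± 0.08 and -0.70 ± 0.08 (adjusted p = 5.42e-06 and 3.03e-06). Atp5g2 fell to 71.9 ± 5.55 and 65.8 ± 3.02 FPKM in bleomycin and doxorubicin cells, against 85.1 ± 6.4 FPKM.

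Atp5g3, the most abundant of the 3 per unit of length, had 186, 185, 174 and 165 FPKM in bleomycin, 175, 167, 171 and 150 FPKM in doxorubicin and 218, 209, 233 and 222 FPKM in IL-1β cells, against 190, 193, 191 and 195 FPKM in vehicle cells. Drug libraries lay below and IL-1β libraries above the narrow vehicle range. Atp5g3 fell in doxorubicin cells by 0.21 (adjusted p = 0.00463), rose in IL-1β cells by 0.20 (adjusted p = 0.0088) and was not called in bleomycin cells (adjusted p = 0.0947). Its IL-1β call did not hold under every scaling. Atp5g1 was therefore at 31.7% ± 1.32 of Atp5g3 in bleomycin and 33.4% ± 1.38 in doxorubicin cells, with 38.7% ± 4.13 in IL-1β and 47% ± 3.25 in vehicle cells. The 3 genes encode the same mature protein, and fragments could be split between near-identical coding stretches.

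Of the c-ring genes 0 rose and 2 fell in bleomycin cells and 0 rose and 3 fell in doxorubicin cells, where 19% and 22.8% of all genes fell. All 5 other membrane subunits of ATP synthase rose with IL-1β, with a median difference of 0.59. Atp5k, a small subunit tied to the pairing of ATP synthase molecules, had 117, 112, 119 and 105 FPKM in bleomycin, 101, 96.1, 91.4 and 108 FPKM in doxorubicin and 177, 170, 193 and 153 FPKM in IL-1β cells, against 88.5, 101, 110 and 95.6 FPKM in vehicle cells. The IL-1β libraries stood apart from all others (0.81, adjusted p = 3.78e-07), and the bleomycin increase of 0.20 (adjusted p = 0.0462) was lost in 10 of the 16 fits that each left out 1 library, over which it was 0.15 to 0.25. Atp5l averaged 449 ± 40.9 FPKM in IL-1β cells, against 263 ± 16.2 FPKM. Of the 4 peripheral stalk subunits, 2 fell with each drug and 2 rose with IL-1β. Those that fell were Atp5pb and Atp5o. The tested Atp5o row shares 12.3% of its exon bases with a second Atp5o row on the same strand, listed at 0. Donson overlaps the exons of that second row, not of the tested one.

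The 3 comparisons with vehicle share the vehicle libraries, so calls in common between them are not independent. For members with calls of opposite sign, the direct comparisons are given. These members were picked by those calls in the same values, so their direct calls were nearly fixed in advance and add no separate support. Ndufa9, an accessory subunit near the ubiquinone site, averaged 47.6 ± 1.5 FPKM in bleomycin, 46.7 ± 0.669 FPKM in doxorubicin and 58.5 ± 0.562 FPKM in IL-1β cells, with 52.4 ± 2.48 FPKM in vehicle cells. It was lower in both drugs than in IL-1β cells (log2 differences -0.29 in bleomycin and -0.32 in doxorubicin cells, adjusted p = 3.35e-05 and 1.25e-05). Ndufs6, a zinc-binding accessory subunit, averaged 57.3 ± 4.6 FPKM in doxorubicin and 95 ± 12.6 FPKM in IL-1β cells, a difference of -0.71 (adjusted p = 1.38e-05). Ndufa4, Ndufs8 and Ndufb8 were also lower in both drugs than in IL-1β cells, and Atp5g3 was lower in doxorubicin than in IL-1β cells (log2 difference -0.41, adjusted p = 1.17e-05). The calls of Ndufa9 with either drug, Atp5g3 with doxorubicin and Ndufs8 with bleomycin were not kept under every scaling.

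Set directly against each other, the drugs differed in few members. Bleomycin was higher than doxorubicin in 1 member and lower in 3, 1.09% and 3.26%, where 5.85% of all genes were higher and 4.18% lower, and the median difference was 0.11 against 0.04 for all genes. A difference of at least 1 was called in Cox7a2l alone, where 0.393% of all genes had one. The 3 lower ones were Cox6b2, Cox6a2 (0.588 ± 0.156 FPKM in bleomycin and 1.37 ± 0.212 FPKM in doxorubicin cells) and Cox7a2l, and the higher one was Ndufs8. The Cox6a2 call was lost without bleomycin replicate 3 (-0.53) or doxorubicin replicate 3 (-0.52), the Cox7a2l call without bleomycin replicate 1 (-1.01), 2 (-1.07) or 4 (-1.04), and the Ndufs8 call without bleomycin replicate 1 (0.27) or 3 (0.28) or doxorubicin replicate 2 (0.26) or 3 (0.26). Cox6b2 was called in each of these 16 fits.

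Against IL-1β, bleomycin was higher in 4 members and lower in 56 (4.35% and 60.9%, where 27.6% of all genes were higher and 25.2% lower), with a median difference of -0.30 against 0.02 for all genes. Doxorubicin was higher in 4 and lower in 61 (4.35% and 66.3%, where 25.1% were higher and 29.2% lower), with a median of -0.35 against -0.03. With libraries scaled to equal sums, bleomycin was higher in 35 members and lower in 13 with a median of 0.08, and doxorubicin higher in 26 and lower in 21 with a median of 0.02, so these counts hold on the deposited scale. Differences of at least 1 from IL-1β were called in 1 member for each drug, Cox7a2l (-1.17) for bleomycin and Cox6b2 (1.40) for doxorubicin, where 6.66% and 7.76% of all genes had one. All 7 core subunits of complex I were lower in doxorubicin than in IL-1β cells. Those higher in bleomycin, and likewise in doxorubicin, were Cox4i2 (105 ± 5.4 and 55 ± 4.42 FPKM in bleomycin and IL-1β cells), Ndufa4l2 (622 ± 16 and 375 ± 54 FPKM), Cox6b2 (17.5 ± 2.98 and 11.4 ± 2.52 FPKM) and Ndufv3 (123 ± 5.94 and 88.6 ± 9.4 FPKM), called under every scaling tried with either drug. Of the lower ones, 13 of 56 in bleomycin and 21 of 61 in doxorubicin were called lower under every scaling (8 and 4 were called higher under at least 1).

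**Figure D4:**
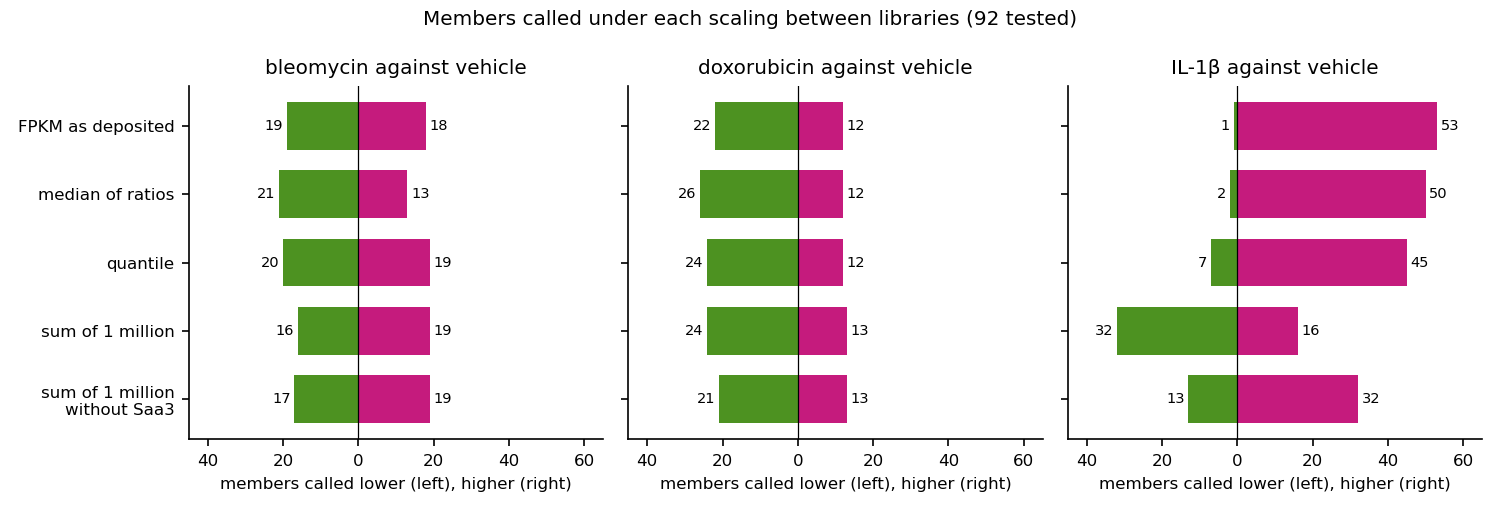
Number of the 92 members called higher and lower than vehicle under 5 scalings of the FPKM values, for bleomycin, doxorubicin and IL-1β cells. For IL-1β the split is 53 higher and 1 lower as deposited and 16 higher and 32 lower with every library scaled to the same sum, whereas the drug counts stay between 12 and 19 higher and between 16 and 26 lower.

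Members with short coding sequences had the higher log2 differences. Over 91 members with an annotated coding sequence, Spearman's rho between the log2 difference and the length of the longest coding sequence was -0.42 in bleomycin, -0.42 in doxorubicin and -0.62 in IL-1β cells, against -0.04, -0.01 and -0.22 over 11729 tested genes. These are correlations across genes, which share libraries and are not independent replicates. Of the 24 members with at most 300 coding bases, 9 rose and 2 fell in bleomycin, 5 rose and 1 fell in doxorubicin and 22 rose and 0 fell in IL-1β cells. The shares that rose were 37.5%, 20.8% and 91.7%, and of the 220 genes of that length that are not members 32.7%, 29.5% and 41.8% rose.

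Among the 15 members with 600 to 1200 coding bases, 0 rose and 8 fell in bleomycin cells and 0 rose and 9 fell in doxorubicin cells, while 19.2% and 23.7% of all genes of that length fell. With IL-1β 3 of these 15 rose, where 29.3% of all genes of that length did. Role and length were not tested separately, and some head subunits, such as Atp5e with 156 coding bases, are short. FPKM divides by gene length, and the tool and effective length behind that division are not given in the sources used here.

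**Figure D5:**
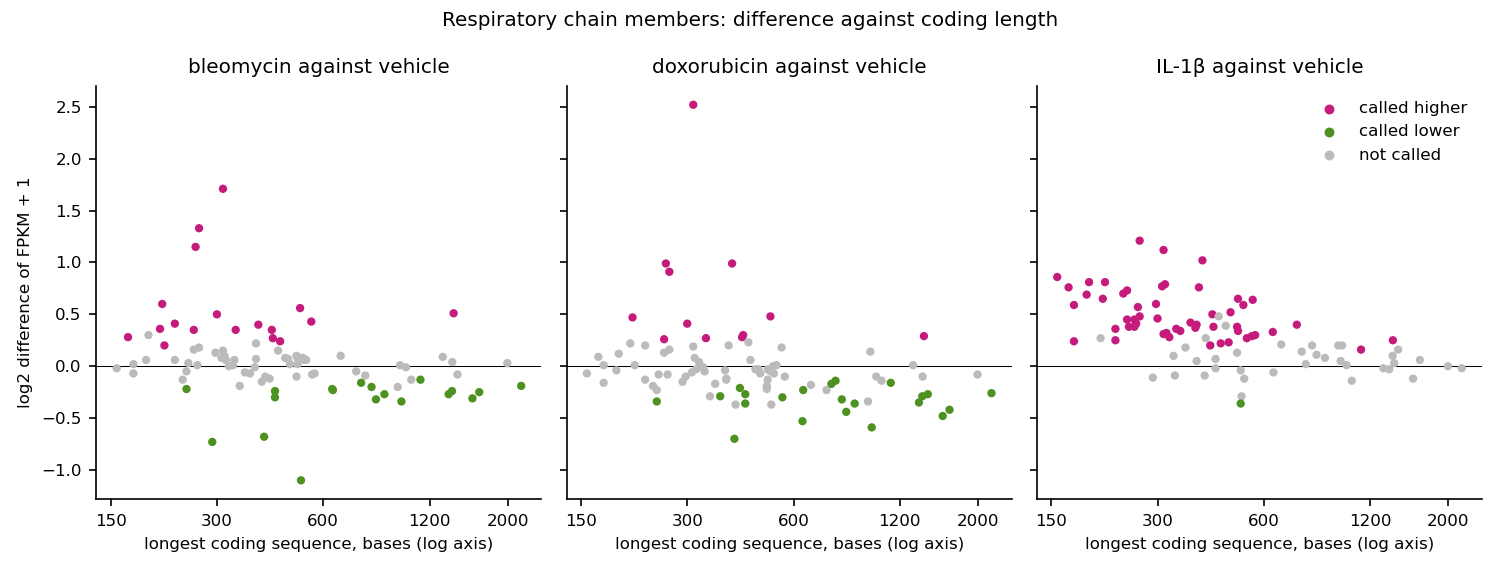
Log2 difference from vehicle against the length of the longest coding sequence in bases (log axis) for 91 members in bleomycin, doxorubicin and IL-1β cells, coloured by call. Spearman's rho is -0.42, -0.42 and -0.62, and nearly all members at the left end lie above 0 with IL-1β.

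Genes that build, feed or regulate the chain were described by the same calls, beside 27.9%, 25.4% and 24.5% of all genes higher and 19%, 22.8% and 18.4% lower in bleomycin, doxorubicin and IL-1β cells. Of 12 complex I assembly factors outside the Ndufaf names, 1 rose and 3 fell in bleomycin, 2 rose and 5 fell in doxorubicin and 2 rose and 1 fell in IL-1β cells. Tmem126b, an assembly factor of the membrane arm, rose to 10.7 ± 0.841 and 10.6 ± 0.827 FPKM in bleomycin and doxorubicin cells, against 6.84 ± 0.225 FPKM in vehicle cells. Of 4 complex II factors, Sdhaf4 rose in all 3 treatments, to 48.4 ± 1.18, 41.9 ± 6.91 and 57.7 ± 4.31 FPKM, against 32.4 ± 2.26 FPKM. Of 24 complex IV factors, 4 rose and 3 fell in bleomycin, 5 rose and 4 fell in doxorubicin and 9 rose and 0 fell in IL-1β cells, and Surf1 rose to 28 ± 0.422 and 25.6 ± 1.95 FPKM in the drugs, against 17.5 ± 1.13 FPKM.

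Electron carriers and nucleotide exchange genes numbered 21, of which 4 rose and 6 fell in bleomycin, 3 rose and 5 fell in doxorubicin and 5 rose and 4 fell in IL-1β cells. Slc25a5, an ADP/ATP carrier of the inner membrane, fell to 137 ± 6.33 and 139 ± 9.27 FPKM in bleomycin and doxorubicin cells, against 244 ± 6.66 FPKM in vehicle cells (adjusted p = 1.02e-08 and 8.91e-09). Cycs, cytochrome c, fell to 17.7 ± 0.945 FPKM in bleomycin cells, against 26.4 ± 1.83 FPKM. Of 14 regulators of respiratory gene transcription, 1 rose and 3 fell in bleomycin, 1 rose and 4 fell in doxorubicin and 2 rose and 2 fell in IL-1β cells. Esrra, the orphan receptor whose motif was searched above, rose to 12.4 ± 1.89, 13.6 ± 1.72 and 10.5 ± 1.04 FPKM, against 8 ± 0.917 FPKM, and Nrf1 fell to 6.02 ± 0.314 and 5.56 ± 0.821 FPKM in the drugs, against 7.49 ± 0.502 FPKM.

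Other genes of mitochondrial protein supply and carbon oxidation were counted in the same way. Of 18 citric acid cycle and pyruvate dehydrogenase genes, 2 rose and 10 fell in bleomycin, 0 rose and 8 fell in doxorubicin and 4 rose and 3 fell in IL-1β cells, with Mdh2 at 117 ± 9.14 FPKM in bleomycin and 167 ± 5.04 FPKM in vehicle cells. Of 14 mitochondrial chaperones and proteases, 1 rose and 8 fell in bleomycin, 0 rose and 9 fell in doxorubicin and 4 rose and 2 fell in IL-1β cells, and Hspd1, the matrix chaperonin, fell to 91.4 ± 3.28 and 84.9 ± 2.65 FPKM, against 162 ± 12.5 FPKM. Of 78 mitochondrial ribosomal protein genes, 2 rose and 24 fell in bleomycin, 1 rose and 39 fell in doxorubicin and 35 rose and 0 fell in IL-1β cells, with medians of -0.11, -0.23 and 0.21. Of 89 cytosolic ribosomal protein genes, 0 rose and 68 fell in bleomycin, 1 rose and 67 fell in doxorubicin and 46 rose and 2 fell in IL-1β cells, with medians of -0.39, -0.37 and 0.25. No test compared these lists with the chain.

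Genes of the alternative route to ATP were also measured. Of 21 glycolysis rows, 7 rose and 6 fell in bleomycin, 4 rose and 12 fell in doxorubicin and 11 rose and 3 fell in IL-1β cells, and Ldhb rose to 32.3 ± 1.27 and 32.4 ± 5.02 FPKM in the drugs, against 16.4 ± 3.97 FPKM. Of 12 hypoxia-inducible genes, 7 rose and 1 fell in each treatment. Adm, a vasodilator peptide and HIF target, rose to 93 ± 4.48, 113 ± 15.9 and 106 ± 4.01 FPKM in bleomycin, doxorubicin and IL-1β cells, against 52 ± 5.66 FPKM. The prolyl hydroxylase gene Egln3 rose to 14.9 ± 1.27 FPKM in bleomycin and 24.4 ± 2.36 FPKM in IL-1β cells, against 9.23 ± 1.07 FPKM in vehicle cells. Of the members associated with low oxygen, Ndufa4l2 rose in all 3 treatments, and Cox4i2 rose with the drugs and fell with IL-1β.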

How the data were processed

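Poly(A)-selected RNA of 16 libraries (4 per group) was sequenced from a stranded kit starting from 1 µg of total RNA, per the labels' protocols. The deposited tables hold FPKM values computed by the authors, 1 table per library with 55450 rows. Trimming used Trimmomatic and alignment used STAR on GRCm38, per the submitters' processing notes. The tool behind FPKM, its annotation and its use of strand are not given in the sources used here. Identifiers of all 99 members matched GENCODE M21.

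FPKM were analysed as log2(FPKM + 1) without further scaling. Rows with at least 1 FPKM in at least 4 libraries (12976) entered limma 3.58.1 in R 4.3.3 with a mean-variance trend and 1 shared spread over all groups, with Benjamini-Hochberg adjustment of p over all rows within each of 6 comparisons and a threshold of 0.05. Fold changes are ratios of mean FPKM, log2 differences include the added 1 and so understate changes of low genes, and ± is SD unless SE is stated. From low values of genes 61.5% to 66.4% came out as whole fragments within 0.1, so counts were not recovered and depth is an estimate. Replicates of a group had equal values in at most 0.17% of genes tested.

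Alternatives were a pseudocount of 0.1, no filter, a mean of at least 5 FPKM, median-of-ratios, quantile and equal-sum scaling (FPKM scaled to TPM), fits of 2 groups alone, a replicate block and leaving out each library. Equal-sum scaling without Saa3 and leaving out members under 1 FPKM throughout a group were chosen after seeing the data. Members, gene lists and motifs were chosen with earlier results of these data known. Named genes were the 2 members per complex with the largest called difference from vehicle, members with isoform partners, members with a log2 difference of at least 1, and up to 3 called genes per other list; further members are named for their calls. Scripts were tested on simulated data. Python 3.11.15, numpy 2.4.6, pandas 2.3.3, scipy 1.17.1 and matplotlib 3.10.9 were used.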

Additional observations from a re-analysis of the deposited data

Results flagged for a closer look

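In 10 of 164 groups of 4 libraries examined, 1 library stood far from the other 3; chance marks about 1 in 20 groups, so a number of this size is near what chance gives. Cox7a2l was at 90.9 FPKM in 1 bleomycin library (the others 34.5 to 38.7) and at 101 FPKM in 1 vehicle library (the others 36.7 to 43.1). Ndufaf4 was at 5.67 FPKM in 1 bleomycin library (others 1.58 to 2.25), and Cox7a1 at 2.51 FPKM in another (others 3.89 to 4.17). Uqcrc2 was at 68.2 FPKM in 1 doxorubicin library (others 64.2 to 64.9), Cox4i2 at 86.4 FPKM (others 101 to 104) and Cox6a2 at 1.69 FPKM (others 1.25 to 1.29). Ndufb2 was at 44.8 FPKM in 1 IL-1β library (others 40.5 to 41.1). The complex IV sum was 2614 FPKM in 1 bleomycin library (others 2895 to 2916) and the complex V sum 4370 FPKM in 1 IL-1β library (others 4817 to 4822).

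In some of the named members the direct difference between treatments was called. Those against IL-1β were picked for opposite calls against vehicle, so they follow largely from that choice. Bleomycin minus doxorubicin was -0.80 on the log2 scale for Cox6b2, -1.15 for Cox7a2l, -0.58 for Cox6a2 and 0.30 for Ndufs8. Bleomycin minus IL-1β was 0.92 for Cox4i2, -0.67 for Ndufa4 and -0.55 for Ndufs8. Doxorubicin minus IL-1β was 0.84 for Cox4i2, -0.79 for Ndufa4, -0.85 for Ndufs8 and -0.41 for Atp5g3.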

How the results depend on the processing

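Scaling decided how many members were called against IL-1β cells. With vehicle as the base, members higher and lower in IL-1β cells were 50 and 2 by median of ratios, 45 and 7 by quantiles, 16 and 32 by equal sums and 32 and 13 by equal sums without Saa3, against 53 and 1 as deposited. Of all calls in IL-1β cells 57.1% were higher as deposited, 44.0% by quantiles, 16.1% by equal sums and 33.3% without Saa3, where the all-gene median was -0.12; for bleomycin the share was 59.5% as deposited and 48.3% by quantiles. Bleomycin against IL-1β gave 10 higher by quantiles, 35 higher and 13 lower by equal sums and 13 higher and 31 lower without Saa3. Doxorubicin against IL-1β gave 26 higher and 21 lower by equal sums and 9 higher without Saa3. Bleomycin against doxorubicin gave 0 higher and 1 lower with no filter, 0 higher by median of ratios, 2 by quantiles, 4 by equal sums, 3 without Saa3, 4 with 2 groups only and 3 with the replicate block.

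The IL-1β medians of complexes I, II, III, IV and V were -0.04, -0.20, -0.17, 0.01 and -0.17 by equal sums and 0.16, 0.00, 0.03, 0.21 and 0.03 without Saa3. By quantiles they were 0.20, 0.08, 0.26 and 0.09 for I, II, IV and V, and by median of ratios 0.13 and 0.15 for II and V. For bleomycin, median of ratios gave 0.00, -0.02, 0.04 and -0.14 for I, II, IV and V. With equal sums, IL-1β differences turned to -0.34 for Ndufv3, -0.26 for Sdhb, -0.04 for Ndufaf3 and Ndufs8, -0.02 for Sdhc, -0.14 for Sdhd, -0.30 for Atp5g2 and -0.17 for Atp5g3. Bleomycin against IL-1β turned to 0.33 for Ndufa1, 0.19 for Atp5b, 0.14 for Uqcrc2, 0.02 for Ndufa6, 0.11 for Sdhc, 0.22 for Sdhd (0.02 without Saa3), 0.17 for Cox6b1, 0.03 for Cox7a2 and 0.06 for Atp5g2 and Atp5g3. Doxorubicin against IL-1β turned to 0.20 for Ndufa1, 0.02 for Atp5b, 0.23 for Ndufaf3, 0.05 for Uqcrc2, 0.11 for Sdhd, 0.04 for Ndufaf8, 0.26 for Cox6b1 and 0.32 for Cox8a. The cause was not tested.

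Leaving out each library in turn, members higher and lower were 14 to 21 and 13 to 18 for bleomycin, 12 to 14 and 18 to 24 for doxorubicin and 51 to 57 and 1 to 2 for IL-1β. Bleomycin against doxorubicin gave 0 to 4 and 2 to 3, bleomycin against IL-1β 4 to 7 and 53 to 60, and doxorubicin against IL-1β 4 to 4 and 57 to 62. The complex V median was -0.12 to -0.01 for bleomycin and 0.17 to 0.21 for IL-1β. Of the named members' differences, 3277 of 3360 values kept direction and call without 1 library, 53 lost and 30 gained a call, and 0 changed sign. Under the other settings 1747 of 1878 kept them, 68 lost and 36 gained a call and 27 changed sign.

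Same-numbered libraries of different groups deviated together weakly, with correlations of -0.02 to 0.21 (median 0.05), of which 6 of 24 were over 0.1. Pairs with other numbers gave -0.19 to 0.1 (median -0.02), and 13 of 16 libraries correlated best with their own number. Whether same-numbered libraries shared a source was not tested, and the main fit did not pair them. With the replicate block, members higher and lower were 18 and 19 in bleomycin, 12 and 26 in doxorubicin and 56 and 1 in IL-1β cells.

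In the 150 bases nearest the start, GCGCATGC was in 4.43% of tested genes and 2.23% of the table, CCGGAAGT in 7.84% and 3.47%, AAGATGGCG in 2.93% and 1.24%, TCAAGGTCA in 0.114% and 0.185% and TACGTG in 0 members, 2.12% and 1.82%.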

Other observations

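Ndufb1-ps, left out by its symbol and annotated as a bidirectional promoter lncRNA, had the highest level of the 14 rows with -ps. It averaged 78.2 ± 4.86, 77.5 ± 5.07 and 113 ± 8.56 FPKM in bleomycin, doxorubicin and IL-1β cells, against 69.3 ± 4.04 FPKM in vehicle cells (SD, n = 4 each). Its log2 differences were 0.17, 0.16 and 0.70 (limma, adjusted p = 0.0477, 0.0635 and 3.71e-07). Ndufa12-ps, a processed pseudogene, averaged 23.8 ± 5.16, 23.3 ± 1.99 and 24.1 ± 2.3 FPKM, against 24.6 ± 2.39 FPKM in vehicle cells, and fragments could be split between it and Ndufa12.

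Of the 99 members, 33 have another row overlapping their exons, 23 of them a row at 1 FPKM or more in any library and 3 of those on the same strand. The part of overlapping transcripts in the values was not tested.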
